A study of Mus musculus with 2 samples.

Results

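Iron, heme and haptoglobin handling was followed through 9 listed genes, Hp, Hpx, Lcn2, Hmox1, Slc40a1, Slc11a1, Tfrc, Fth1 and Ftl1, all of which were among the 27998 genes of the count matrices. The data are droplet-based 3' single-cell RNA counts from wild-type C57BL/6 mice whose 2 mm parietal bone defects held a CGG-Cit hydrogel in 1 library and a CGG hydrogel, the comparator, in the other, both taken on day 14. The study asked whether cell populations in the defect differ and bear on recruitment of progenitor cells. The trimmed defect was digested in 0.3% collagenase and strained at 70 µm, so the suspension holds whatever cells the digest released, and how many mice each library pools was not stated.

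Iron enters most cells bound to transferrin through the transferrin receptor, is stored in the ferritin shell, and leaves through ferroportin. Iron from dead red cells arrives as hemoglobin or heme, which haptoglobin and hemopexin capture in the extracellular fluid and macrophages break down with heme oxygenase, while neutrophils and macrophages carry proteins that keep iron away from microbes. Iron-regulatory proteins bind a hairpin, the iron-responsive element, in several of these mRNAs when cell iron is low: in the 5' UTR this blocks translation, and in the 3' UTR it stabilises the mRNA.

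A hairpin of this form (a C, then 5 bases that pair across a 6-base loop reading CAGTGN) was found in transcripts of 4 of the 9 genes, each time in an annotated UTR. Searched the same way on the sense strand, 294 of 21877 protein-coding genes (1.34%) had a match anywhere in a transcript, whether UTR or coding. The sequences are shown because they separate the mRNAs whose level is itself under this control (Tfrc, 3' UTR) from those whose translation is (Fth1, Ftl1 and Slc40a1, 5' UTR), and the counts here measure mRNA only. They are from GENCODE M21 transcripts (GRCm38), 5' to 3' on the sense strand, and capitals mark the loop CAGTGN. A match describes the letters and does not show binding.
Fth1, 5' UTR, chr19:9982733-9982759, plus strand: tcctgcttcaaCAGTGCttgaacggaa
Ftl1, 5' UTR, chr7:45459780-45459806, minus strand: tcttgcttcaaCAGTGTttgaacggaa
Slc40a1, 5' UTR, chr1:45925466-45925492, minus strand: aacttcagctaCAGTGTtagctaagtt
Tfrc, 3' UTR, chr16:32631220-32631246, plus strand: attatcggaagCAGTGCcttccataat
Tfrc, 3' UTR, chr16:32631599-32631625, plus strand: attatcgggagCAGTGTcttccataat
Tfrc, 3' UTR, chr16:32631664-32631690, plus strand: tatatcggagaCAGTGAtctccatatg
Tfrc, 3' UTR, chr16:32631711-32631737, plus strand: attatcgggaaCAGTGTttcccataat

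The CGG-Cit library kept 9994 cells (median 5913.5 UMIs, unique RNA molecules counted) and the CGG library 11073 cells (median 3969 UMIs), and 34 cell barcodes occurred in both. Cells were clustered together without the 9 genes and without the other iron genes listed below, and clusters were named from fixed marker lists, so no level of an iron gene helped to define a cell type, while the marker genes quoted below did. The cell makeup differed: CGG-Cit held 81 macrophages and 53 mesenchymal cells, against 1283 and 1619 in CGG, while immature and mature neutrophils numbered 1257 and 1433 in CGG-Cit, against 453 and 659 in CGG. The macrophage marker C1qa stood at 1663 CPM (counts per 1000000 UMIs of the class) in CGG-Cit macrophages and 4210.0 CPM in CGG macrophages, and the neutrophil gene S100a8 at 134857 CPM in CGG-Cit immature neutrophils and 151718 CPM in CGG ones. In B lineage cells, which should lack both, C1qa was 0.549 CPM in CGG-Cit and 79.9 CPM in CGG, and S100a8 was 976 CPM in CGG-Cit and 642 CPM in CGG. A further group of 23 CGG-Cit and 3081 CGG cells, led by Gm26870, matched no marker list and is not described. With 1 library per hydrogel there is no replicate, so no test was made: each ratio below is CGG-Cit over CGG, with a 95% interval in parentheses that covers counting error only, and a class is given in a library where it had at least 50 cells.

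Hp (chr8:109575128-109579172, gene positions being those of GENCODE M21 on GRCm38), haptoglobin, binds free hemoglobin and is best known as a liver plasma protein, and in human neutrophils it is also packed into granules. In the defect its mRNA was mainly a neutrophil and monocyte transcript. Mature neutrophils held 1833 CPM in CGG-Cit and 1439.9 CPM in CGG, a ratio of 1.27 (1.23 to 1.32). Immature neutrophils held 1647 CPM in CGG-Cit and 1382 CPM in CGG, a ratio of 1.19 (1.16 to 1.22). Monocytes held 607 CPM in CGG-Cit and 409 CPM in CGG, a ratio of 1.48 (1.42 to 1.55). Hp was thus higher in CGG-Cit in each of these 3 classes, by less than 2-fold, though in monocytes its log2 ratio of 0.57 was 1.13 at Leiden resolution 0.5 (coarser clusters) and 1.28 where each library was clustered alone. Myeloid progenitors, given only for CGG-Cit, reached 924 CPM. The intervals of mature and immature neutrophils were apart in CGG-Cit and overlapped in CGG. Immature neutrophils supplied 45.8% of all Hp UMIs in CGG-Cit and 42.1% in CGG, mature neutrophils 20.8% in CGG-Cit and 24.7% in CGG, and monocytes 16.9% in CGG-Cit and 16.2% in CGG.

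Hpx (chr7:105591613-105600137), hemopexin, which binds free heme and is made mainly by the liver, was almost absent: 3 UMIs in CGG-Cit and 23 in CGG, with 16 of the CGG UMIs in mesenchymal cells. No fold is given, since CGG-Cit stood at the 3 UMIs taken as its floor. Cd163, the macrophage receptor for the haptoglobin and hemoglobin complex, had 0 UMIs in the 81 CGG-Cit macrophages, where 3 UMIs would be 4.12 CPM, and 213 UMIs or 16.8 CPM in CGG macrophages.

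Lcn2 (chr2:32384633-32388252), lipocalin 2, binds the siderophores by which bacteria take up iron, and is a protein of neutrophil granules. It was highest in immature neutrophils, at 15313 CPM in CGG-Cit and 14306 CPM in CGG, a ratio of 1.07 (1.06 to 1.08). Mature neutrophils held 7019 CPM in CGG-Cit and 6698 CPM in CGG, a ratio of 1.05 (1.03 to 1.07). In the joint clusters Lcn2 thus differed little per neutrophil RNA. The mature value depended on the clusters: its log2 ratio was 0.07 here and 1.44 where each library was clustered alone, with 0.24 in immature neutrophils. Over whole libraries its level was 3193 CPM in CGG-Cit and 1377 CPM in CGG, where the numbers of neutrophils enter. Monocytes held 206 CPM in CGG-Cit and 110.4 CPM in CGG, a ratio of 1.87 (1.73 to 2.02), with 313 CPM in CGG-Cit and 62.7 CPM in CGG in the cluster led by Hpgd and 164 CPM in CGG-Cit and 163 CPM in CGG in the cluster led by F13a1. The monocyte log2 ratio was 0.90, 0.26 with doublets kept and 2.88 at Leiden resolution 0.5. After thinning every cell to 1000 UMIs and leaving out shallower cells (3802 of the 3886 CGG-Cit and 912 of the 920 CGG B lineage cells, 1249 of the 1257 CGG-Cit and 451 of the 453 CGG immature neutrophils, 1383 of the 1433 CGG-Cit and 651 of the 659 CGG mature neutrophils, 81 of the 81 CGG-Cit and 1266 of the 1283 CGG macrophages and 389 of the 438 CGG-Cit and 186 of the 192 CGG early erythroid cells remained), 99.7% of CGG-Cit and 99.8% of CGG immature neutrophils had an Lcn2 UMI, against a background of 13.5% of CGG-Cit and 7.24% of CGG B lineage cells. Unthinned, the B lineage shares were 42.7% in CGG-Cit (median 3226.5 UMIs) and 24.9% in CGG (median 2842.5 UMIs), so a cell with a few Lcn2 UMIs is not read here as expressing it.

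The 4 neutrophil clusters gave the members a course through maturation. They are ordered by the summed level of mature over immature marker genes, which was 0.0337, 0.208, 1.82 and 20.5 over both libraries, and each is named by its leading gene (Chil3, Ly6g, Retnlg, Gm5483). Hp stood at 1594, 1711, 1711 and 2074 CPM along this order in CGG-Cit and at 1372, 1392, 1408 and 1495 CPM in CGG, a small difference between clusters beside its level. Lcn2 stood at 13257, 17791, 8992 and 3097 CPM in CGG-Cit and at 12568, 16119.9, 9281 and 2237 CPM in CGG, with its peak in the Ly6g cluster. Slc40a1 stood at 55.9, 79.9, 95.4 and 143 CPM in CGG-Cit and at 56.2, 59.8, 67.5 and 143 CPM in CGG. Slc40a1 and Fth1 were thus highest at the mature end in both libraries, where Lcn2 was lowest. Slc11a1 stood at 2.29, 22.8, 74.6 and 153 CPM in CGG-Cit and at 12.3, 25.2, 107 and 233 CPM in CGG, again highest in the Gm5483 cluster. Fth1 stood at 772, 3864, 8339 and 12497 CPM in CGG-Cit and at 2177, 7543, 13363 and 18019.7 CPM in CGG.

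**Figure D1:**
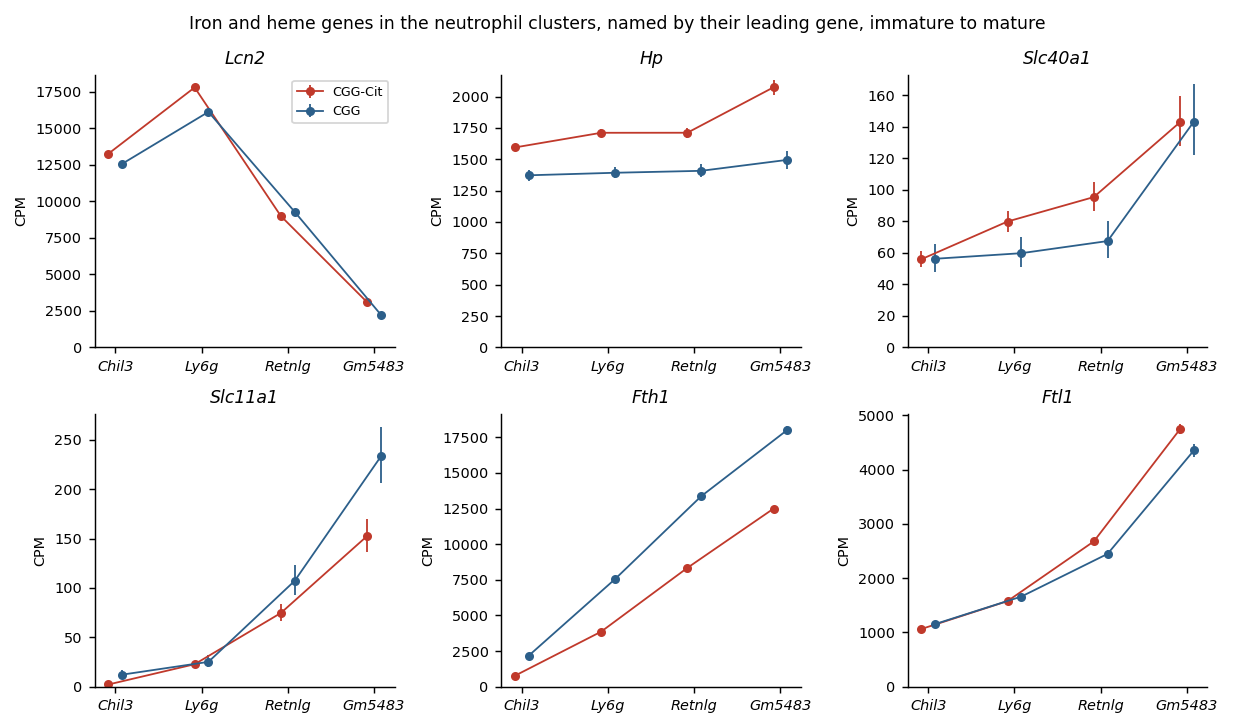
CPM (linear axis) of 6 genes in the 4 neutrophil clusters, from the most immature (Chil3) to the most mature (Gm5483), with CGG-Cit in red and CGG in blue and bars for 95% Poisson intervals. Fth1 is lower in CGG-Cit in all 4 clusters, 772 CPM in CGG-Cit against 2177 CPM in CGG in the Chil3 cluster. Relative to their level, Hp and Lcn2 differ less between the libraries.

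In macrophages, mesenchymal cells and dendritic cells, Hp and Lcn2 were low in CGG and several fold higher in CGG-Cit. In macrophages Hp was 319 CPM in CGG-Cit (232 UMIs) and 23.5 CPM in CGG (298 UMIs), a ratio of 13.6 (11.4 to 16.2), and Lcn2 was 708 CPM in CGG-Cit and 71.3 CPM in CGG, a ratio of 9.93 (8.89 to 11.1). These macrophage values rest on few cells: 5 of the 81 CGG-Cit macrophages held 90.1% of their Lcn2 UMIs, against 36.7% in the top 65 of 1283 CGG macrophages. Hp was spread more widely, with a UMI in 45 of 81 CGG-Cit macrophages (55.6%) and in 163 of 1283 CGG macrophages (12.7%). Some marker lists of other cells moved with these values and others did not. The 13 immature neutrophil markers summed to 4174 CPM in CGG-Cit macrophages and 1179.9 CPM in CGG macrophages, with none at 0 in either, and the 14 monocyte markers summed to 16985 CPM in CGG-Cit macrophages and 5247 CPM in CGG macrophages. The 14 mature neutrophil markers did not rise, at 4556 CPM in CGG-Cit macrophages and 4794 CPM in CGG macrophages. Nor did the B lineage markers, at 5723 CPM in CGG-Cit and 6225 CPM in CGG, or the late erythroid markers, at 4368 CPM in CGG-Cit and 5358 CPM in CGG. The size of the Hp and Lcn2 differences depended on the cells kept. With at least 500 genes per cell the macrophage log2 ratios were 2.40 for Hp and 1.08 for Lcn2, against 3.76 and 3.31, and as a mean of per-cell CPM Lcn2 was at 1.51. With doublets kept they were 2.90 for Hp and 2.31 for Lcn2, and with each library clustered alone Hp was at 5.26. The macrophage markers themselves summed to 19739 CPM in CGG-Cit macrophages and 56924 CPM in CGG macrophages. The part of neutrophil and monocyte RNA in the Hp and Lcn2 values was not tested.

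S100a8, another neutrophil gene, gave a scale for that RNA. Per 100 S100a8 UMIs, Lcn2 had 11.4 (11.3 to 11.4) UMIs in CGG-Cit immature neutrophils and 9.43 (9.36 to 9.499) in CGG ones. Mature neutrophils had fewer, at 5.95 (5.89 to 6.00) in CGG-Cit and 5.25 (5.18 to 5.33) in CGG. In B lineage cells the same quantity was 10.9 (10.48 to 11.4) in CGG-Cit and 9.56 (8.38 to 10.9) in CGG, close to the immature neutrophil value but not to the mature one. In CGG-Cit macrophages it was 19.3 (17.5 to 21.2), against 9.62 (8.98 to 10.3) in CGG macrophages. Hp did not keep the neutrophil ratio everywhere: per 100 S100a8 UMIs it had 1.22 (1.21 to 1.24) UMIs in CGG-Cit and 0.911 (0.890 to 0.932) in CGG immature neutrophils, but 24.1 (23.6 to 24.7) in CGG-Cit and 30.6 (29.3 to 31.9) in CGG monocytes. Macrophages lay between these, at 8.68 (7.56 to 9.93) Hp UMIs per 100 S100a8 UMIs in CGG-Cit and 3.17 (2.81 to 3.56) in CGG. Monocytes thus held many times more Hp for each S100a8 UMI than neutrophils did in both libraries.

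**Figure D2:**
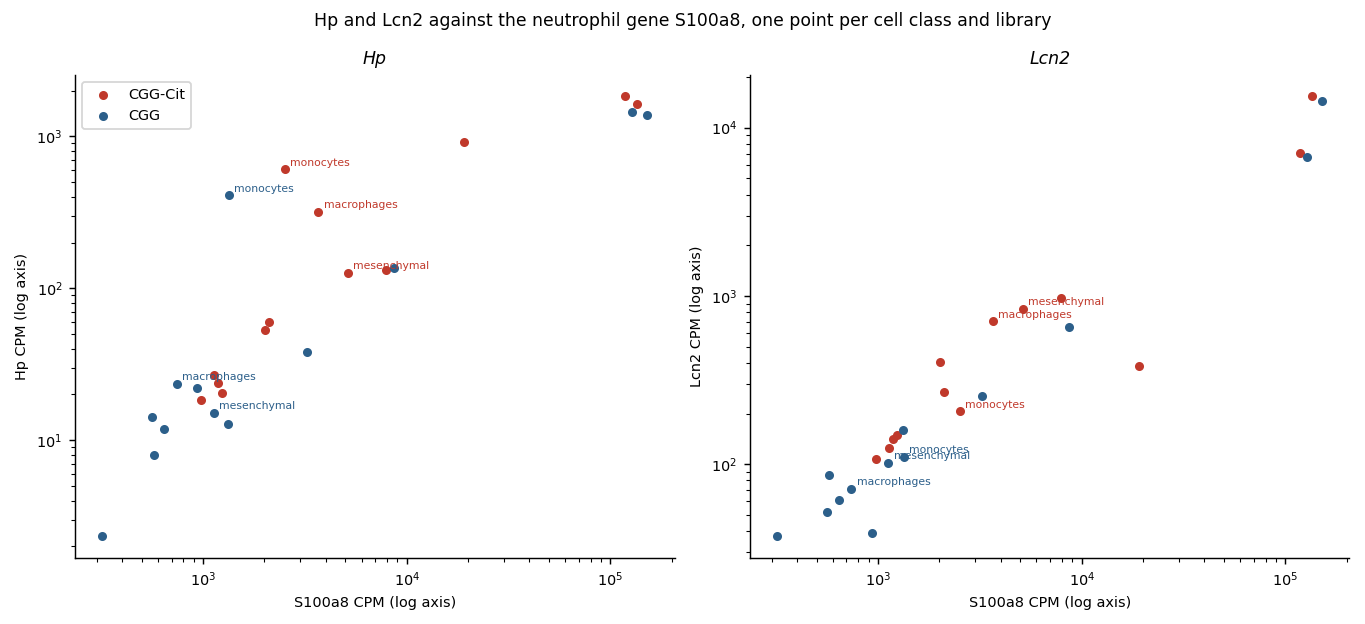
Hp (one panel) and Lcn2 (the other) against S100a8, all in CPM on log axes, for each cell class in CGG-Cit (red) and CGG (blue). Monocytes hold more Hp for their S100a8 than neutrophils do, at 607 CPM in CGG-Cit and 409 CPM in CGG, while Lcn2 follows S100a8 across most classes.

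Mesenchymal cells held 126 CPM of Hp in CGG-Cit and 15.1 CPM in CGG, a ratio of 8.36 (6.79 to 10.2), and 835 CPM of Lcn2 in CGG-Cit and 102 CPM in CGG, a ratio of 8.22 (7.5997 to 8.89). Few cells held most of each gene's UMIs. Of the 53 CGG-Cit cells, the top 3 for Hp held 71.3% of its UMIs and the top 3 for Lcn2 held 88.4%. Whether these were the same cells was not tested. As a mean of per-cell CPM the log2 ratios were 1.74 for Hp and 1.57 for Lcn2, against 3.06 and 3.04, and with the per-cell marker gate Lcn2 was at 0.76, no longer past 2-fold. With doublets kept Lcn2 was at 1.45, with at least 500 genes per cell at 2.21 and with each library clustered alone at 3.76, where Hp was at 5.27. S100a8 stood at 5147 CPM in CGG-Cit and 1126 CPM in CGG mesenchymal cells; its part in these values was not tested. The 53 CGG-Cit cells were also spread differently over clusters, with 22, 11, 15, 4 and 1 in CGG-Cit and 406, 646, 101, 150 and 316 in CGG for the clusters led by Mmp13, C1qtnf3, Ptgds, Tnxb and Sbsn. Dendritic cells gave Lcn2 at 976 CPM in CGG-Cit and 38.8 CPM in CGG, with 93.9% of the CGG-Cit UMIs in 6 cells. Endothelial cells went the other way: Hp was 52.9 CPM in CGG-Cit and 135 CPM in CGG, a ratio of 0.391 (0.259 to 0.569), and Lcn2 was 407 CPM in CGG-Cit and 653 CPM in CGG, with S100a8 at 2022 CPM in CGG-Cit and 8666 CPM in CGG. In T and NK cells Hp was 27.02 CPM in CGG-Cit and 12.8 CPM in CGG, a ratio of 2.11 (1.45 to 3.12). That call was lost with doublets kept, where the log2 ratio was 0.23 against 1.08. In the same cells Lcn2 was 124 CPM in CGG-Cit and 160.0 CPM in CGG, a ratio of 0.775 (0.679 to 0.885), with S100a8 at 1135 CPM in CGG-Cit and 1320.0 CPM in CGG. B lineage cells, taken as the background for the gene, held Hp at 18.5 CPM in CGG-Cit and 11.9 CPM in CGG. They were the lowest class in CGG-Cit but not in CGG. There late erythroid cells held 8.04 CPM and early erythroid cells 2.35 CPM.

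Hmox1 (chr8:75093621-75100589), heme oxygenase 1, opens the heme ring and releases its iron. Its level was highest in macrophages in both libraries, at 386 CPM in CGG-Cit macrophages (281 UMIs) and 298 CPM in CGG macrophages (3782 UMIs), a ratio of 1.30 (1.14 to 1.46). The direction in macrophages depended on which cells were counted: 5 of 81 CGG-Cit macrophages held 69.4% of the UMIs, against 41.4% in the top 65 CGG macrophages, and the share of macrophages with a UMI, after thinning to 1000 UMIs, was 17.3% (9.78 to 27.3%) in CGG-Cit and 20.1% (17.9 to 22.4%) in CGG. Where each library was clustered alone, 577 CGG-Cit cells took the macrophage name and the log2 ratio was -1.39, against 0.37 with the joint clusters. Monocytes held 26.8 CPM in CGG-Cit and 62.9 CPM in CGG, a ratio of 0.426 (0.373 to 0.488), or -1.23 on the log2 scale, and with coarser clusters (Leiden resolution 0.5) the log2 ratio was -0.18, with each library clustered alone -2.59. Within the monocyte clusters, the one led by Hpgd held 58.7 CPM in CGG-Cit and 83.5 CPM in CGG, and the one led by F13a1 14.0 CPM in CGG-Cit and 40.0 CPM in CGG, so both were lower in CGG-Cit. Mature neutrophils held 45.4 CPM in CGG-Cit and 54.5 CPM in CGG, a ratio of 0.833 (0.687 to 1.01), whose interval holds 1. Immature neutrophils held 9.71 CPM in CGG-Cit and 18.6 CPM in CGG, a ratio of 0.522 (0.404 to 0.678), or -0.94 on the log2 scale and -1.51 with each library clustered alone. Endothelial cells held 31.0 CPM in CGG-Cit and 93.0 CPM in CGG, and mesenchymal cells 57.6 CPM in CGG-Cit and 88.2 CPM in CGG. In CGG-Cit, monocytes supplied 31.1% of Hmox1 UMIs, mature neutrophils 21.5% and macrophages 20.4%. In CGG, macrophages supplied 47.5% and mesenchymal cells a further 27.3%.

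Cells that should lack Hmox1 held it more often in CGG. B lineage cells had 1.14 CPM in CGG-Cit and 10.7 CPM in CGG, and 0.618% of them in CGG-Cit and 4.78% in CGG had a UMI. The macrophage gene C1qa moved the same way in these cells, with the values given above. C1qa in monocytes was 0.376 CPM in CGG-Cit and 33.9 CPM in CGG, and in immature neutrophils 0.564 CPM in CGG-Cit and 40.5 CPM in CGG. The part of macrophage RNA in the Hmox1 values of these classes was not tested.

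Slc40a1 (chr1:45908068-45926523), ferroportin, is the iron exporter of the cell and in the adult is best known in macrophages that recycle red cell iron. Here its highest class was mature neutrophils, at 111 CPM in CGG-Cit and 95.3 CPM in CGG, a ratio of 1.17 (1.02 to 1.34). With each library clustered alone that log2 ratio of 0.22 turned sign, to -0.14. Immature neutrophils followed at 66.8 CPM in CGG-Cit and 58.0 CPM in CGG, a ratio of 1.15 (1.02 to 1.31). The neutrophil level was well above background, since thinned to 1000 UMIs 11.6% (10.0 to 13.4%) of CGG-Cit and 9.37% (7.24 to 11.9%) of CGG mature neutrophils had a UMI, against 0.210% (0.0909 to 0.414%) of CGG-Cit and 0.548% (0.178 to 1.27%) of CGG B lineage cells; unthinned, the mature neutrophil shares were 33.5% in CGG-Cit (median 3936 UMIs) and 30.3% in CGG (median 3753 UMIs). In early erythroid cells, which also carry the exporter, Slc40a1 was 31.2 CPM in CGG-Cit and 36.8 CPM in CGG, a ratio of 0.848 (0.666 to 1.09). Macrophages held 12.4 CPM in CGG-Cit and 45.9 CPM in CGG, a ratio of 0.269 (0.123 to 0.515), from 9 UMIs in 4 of 81 CGG-Cit cells and 583 UMIs in 163 of 1283 CGG cells. In CGG 65 macrophages held 79.9% of those UMIs, so most of its CGG macrophage mRNA came from a minority of the cells. In monocytes it was 3.13 CPM in CGG-Cit and 0.851 CPM in CGG, and in late erythroid cells 3.80 CPM in CGG-Cit and 4.69 CPM in CGG. Immature and mature neutrophils together with progenitors and early erythroid cells gave most Slc40a1 UMIs in CGG-Cit (40.6%, 27.6%, 15.4% and 9.44%), while macrophages were the leading source in CGG, with 31.0%.

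Slc11a1 (chr1:74375195-74386062), also called NRAMP1, pumps metal ions out of the phagosome. It was highest in macrophages and mature neutrophils, the classes that take up microbes and dead cells. Macrophages held 129 CPM in CGG-Cit and 276 CPM in CGG, a ratio of 0.468 (0.377 to 0.575) or -1.09 on the log2 scale, which was -0.86 and not past 2-fold with at least 500 genes per cell, and -2.13 with each library clustered alone. There was a UMI in 11.1% (5.21 to 20.05%) of CGG-Cit and 23.9% (21.6 to 26.4%) of CGG macrophages after thinning (unthinned, 48.1% in CGG-Cit at a median of 8210 UMIs and 72.2% in CGG at a median of 8756 UMIs). Mature neutrophils held 101 CPM in CGG-Cit and 153 CPM in CGG, a ratio of 0.657 (0.583 to 0.741). Monocytes held 21.2 CPM in CGG-Cit and 48.5 CPM in CGG, a ratio of 0.438 (0.375 to 0.510). Slc11a1 was thus lower in CGG-Cit in all 3 classes, and with each library clustered alone the log2 ratio was past 2-fold in mature neutrophils too, at -1.08 against -0.61. The cluster mix bears on the monocyte value: the cluster led by Hpgd held 55.0 CPM in CGG-Cit and 81.3 CPM in CGG, the cluster led by F13a1 7.72 CPM in CGG-Cit and 12.2 CPM in CGG, and neither was past 2-fold. The log2 ratio of the class was -1.19, -0.30 at Leiden resolution 0.5 and -3.39 with each library clustered alone. Immature neutrophils held 11.6 CPM in CGG-Cit and 18.6 CPM in CGG, and B lineage cells 0.869 CPM in CGG-Cit and 7.61 CPM in CGG.

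**Figure D3:**
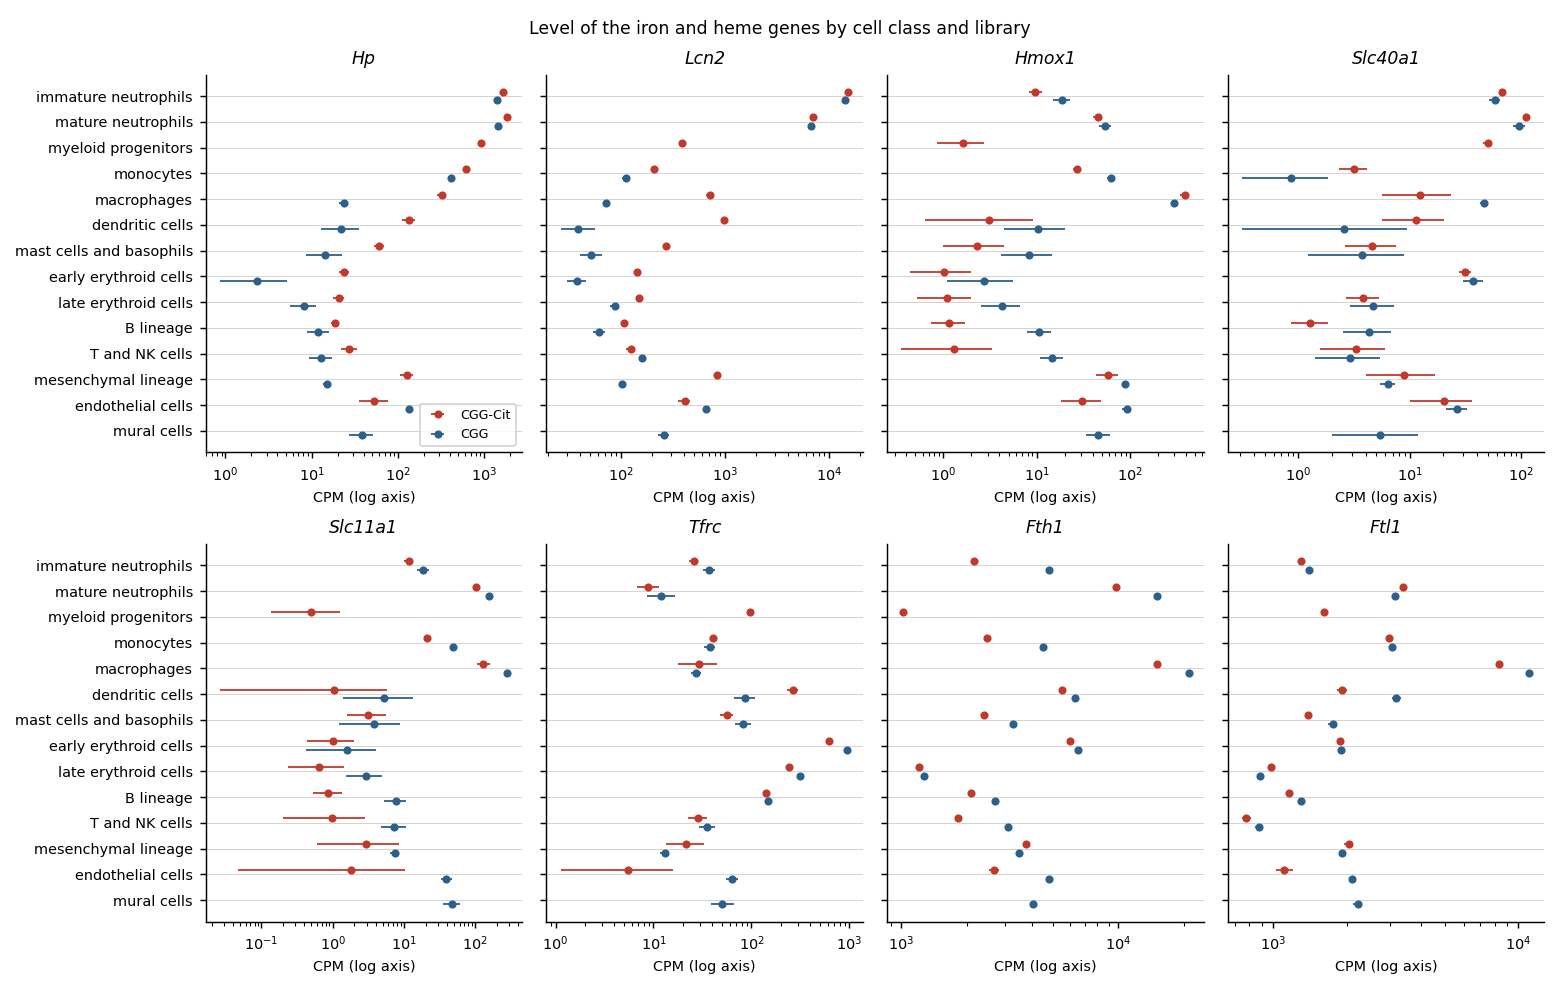
CPM (log axis) of 8 genes in each cell class, CGG-Cit in red above CGG in blue, with bars for 95% Poisson intervals. Hp and Lcn2 peak in neutrophils, Hmox1 and Slc11a1 in macrophages, Slc40a1 in mature neutrophils and Tfrc in early erythroid cells, in both libraries.

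Tfrc (chr16:32608920-32632794), the transferrin receptor, brings in the iron that red cell precursors need for heme. Early erythroid cells were the highest class, at 613 CPM in CGG-Cit and 939.7 CPM in CGG, a ratio of 0.653 (0.621 to 0.686). The stages inside that class were mixed differently. Its cluster led by Hemgn had 301 CGG-Cit and 173 CGG cells with 869.5 CPM in CGG-Cit and 1015 CPM in CGG, a ratio of 0.857 (0.815 to 0.902). The cluster led by Car1 had 137 CGG-Cit cells, at 179 CPM, and only 19 CGG cells, too few to be given. The class difference was therefore larger than the one within the shared cluster. Late erythroid cells held 240.2 CPM in CGG-Cit and 315 CPM in CGG, a ratio of 0.762 (0.713 to 0.815). Globin mRNA took 24.4% of UMIs in CGG-Cit and 38.9% in CGG early erythroid cells, and with globins left out of the total, a choice made after the data were seen, the early erythroid Tfrc ratio was 0.528 (0.503 to 0.555). Thinned to 1000 UMIs, 47.3% (42.2 to 52.4%) of CGG-Cit and 59.1% (51.7 to 66.3%) of CGG early erythroid cells had a Tfrc UMI; unthinned, these shares were 81.1% in CGG-Cit (median 13408 UMIs) and 92.2% in CGG (median 11688.5 UMIs).

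Outside the red lineage, dividing cells also take up transferrin iron. B lineage cells held 140.4 CPM in CGG-Cit and 148 CPM in CGG, a ratio of 0.951 (0.872 to 1.04). Their cluster led by Myl4 was at 168 CPM in CGG-Cit and 189 CPM in CGG, and their cluster led by Ms4a1 at 54.9 CPM in CGG-Cit and 112 CPM in CGG. Dendritic cells held 263 CPM in CGG-Cit and 85.4 CPM in CGG, a ratio of 3.07 (2.34 to 4.09), but within their cluster led by Siglech the values were 302 CPM in CGG-Cit and 177 CPM in CGG, a ratio of 1.71 (1.29 to 2.29). Mature neutrophils were near the low end, at 8.89 CPM in CGG-Cit and 12.1 CPM in CGG.

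Fth1 (chr19:9980598-9985098) encodes the ferritin heavy chain, which oxidises iron for storage. It was highest in macrophages, at 15006 CPM in CGG-Cit and 21089 CPM in CGG, a ratio of 0.712 (0.698 to 0.725). Mature neutrophils held 9731 CPM in CGG-Cit and 15071 CPM in CGG, a ratio of 0.646 (0.638 to 0.653). Immature neutrophils held 2174 CPM in CGG-Cit and 4804 CPM in CGG, a ratio of 0.453 (0.445 to 0.460). Fth1 was thus lower in CGG-Cit in these classes. With each library clustered alone the log2 ratio was -2.10 in macrophages, against -0.49, and -1.84 in monocytes, against -0.86, so the order of the classes depended on the clusters. Monocytes held 2481 CPM in CGG-Cit and 4516 CPM in CGG, a ratio of 0.549 (0.541 to 0.558), and T and NK cells 1833 CPM in CGG-Cit and 3103 CPM in CGG, a ratio of 0.591 (0.572 to 0.610). B lineage cells held 2105 CPM in CGG-Cit and 2698 CPM in CGG, a ratio of 0.780 (0.764 to 0.796). Early erythroid cells held 5995 CPM in CGG-Cit and 6483 CPM in CGG, a ratio of 0.925 (0.908 to 0.941), and mesenchymal cells 3763 CPM in CGG-Cit and 3499 CPM in CGG, a ratio of 1.08 (1.04 to 1.11). Within single clusters the Fth1 interval lay below 1 in 18 of the 20 clusters with at least 50 cells in both libraries, above 1 in 1, the Hemgn cluster at 1.08 (1.06 to 1.10), and held 1 in 1. Counts of the same kind, lower and then higher, were 12 and 1 of 18 for Hmox1 and 12 and 0 of 18 for Slc11a1. For Tfrc they were 10 and 1 of 20, and for Slc40a1 3 and 3 of 18. They were 1 and 15 of 20 for Hp and 3 and 15 of 20 for Lcn2. These counts include clusters where a gene stood at background, such as those of B lineage cells. There C1qa was higher in CGG and S100a8 higher in CGG-Cit. The lowest Hmox1 ratio, 0.0654, was in the B lineage cluster led by Vpreb1. The same counts were not made over all genes, and the part of RNA from other cells in them was not tested.

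**Figure D4:**
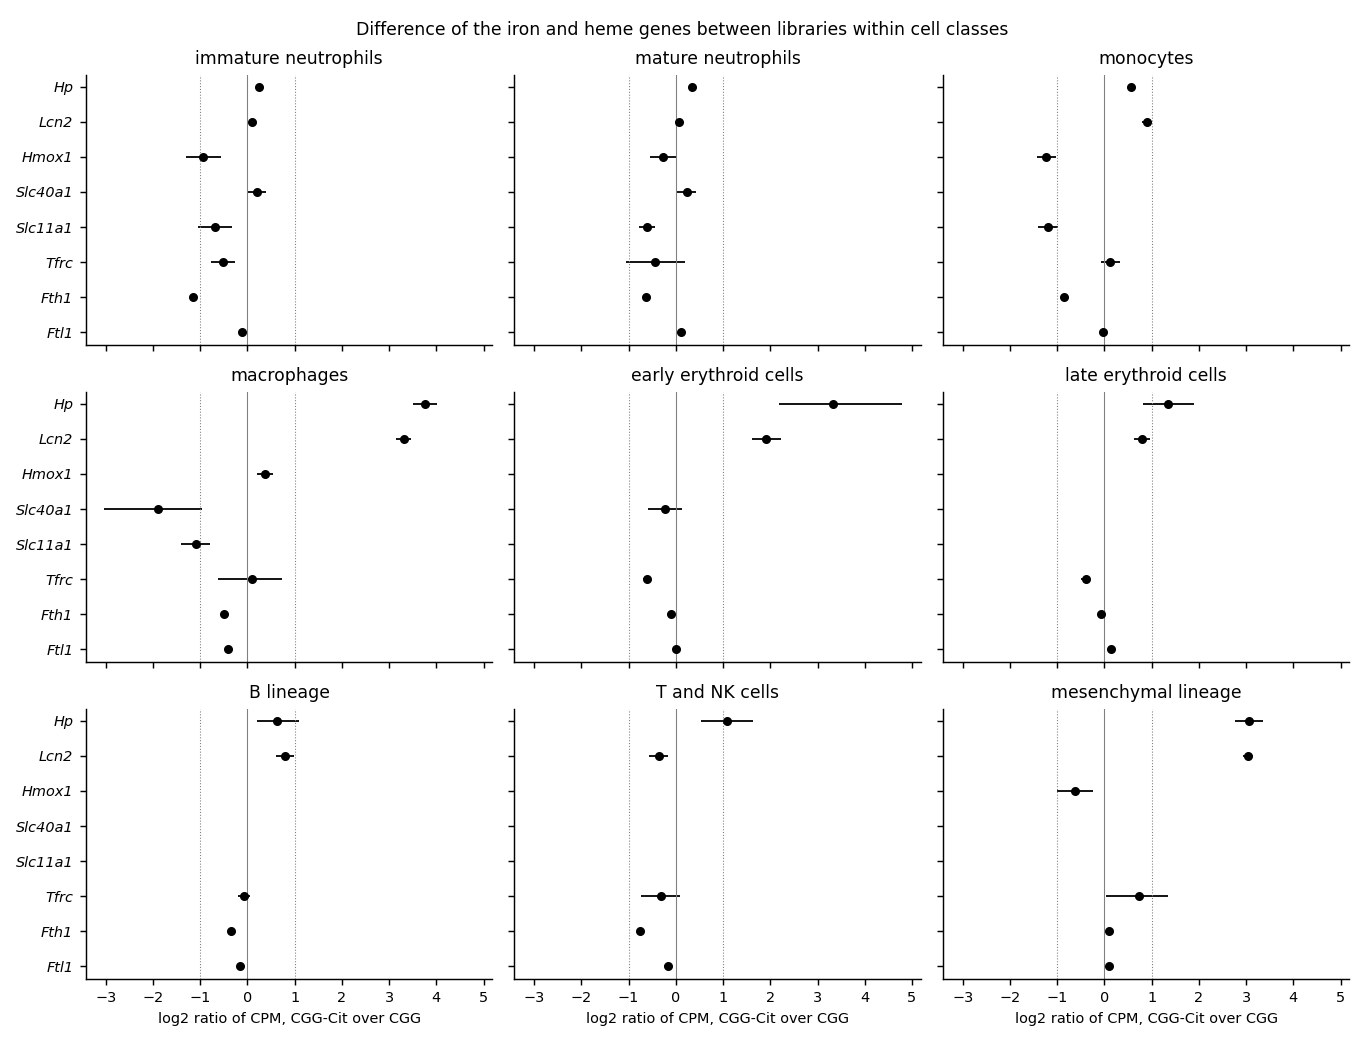
Log2 ratio of CGG-Cit over CGG for each cell class (panels) and gene (rows), with 95% intervals for counting error and dotted lines at 2-fold in either direction. Fth1 lies left of 0 in neutrophils, monocytes, macrophages and lymphoid cells, while Hp lies right of 0 in every class shown.

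Ftl1 (chr7:45457944-45459884) encodes the ferritin light chain, which helps the iron core form inside the shell, and followed Fth1 less than fully. Mature neutrophils held 3369.9 CPM in CGG-Cit and 3147 CPM in CGG, a ratio of 1.07 (1.05 to 1.10), whose log2 value of 0.10 turned to -0.27 with each library clustered alone. Immature neutrophils held 1297 CPM in CGG-Cit and 1403 CPM in CGG, a ratio of 0.925 (0.901 to 0.949), and monocytes 2971 CPM in CGG-Cit and 3053 CPM in CGG, a ratio of 0.973 (0.957 to 0.989). In macrophages, the highest class, it was 8358 CPM in CGG-Cit and 11087 CPM in CGG, a ratio of 0.754 (0.735 to 0.773), close to that of Fth1, and its log2 value of -0.41 was -1.35 with each library clustered alone. Over clusters the Ftl1 interval lay below 1 in 9 of 20, above 1 in 7 and held 1 in 4. The quotient of the chains needs no scaling by library total. Immature neutrophils had 1.68 (1.65 to 1.70) Fth1 UMIs per Ftl1 UMI in CGG-Cit and 3.42 (3.34 to 3.51) in CGG. Mature neutrophils had 2.89 (2.84 to 2.93) in CGG-Cit and 4.79 (4.68 to 4.90) in CGG, and monocytes 0.835 (0.824 to 0.846) in CGG-Cit and 1.48 (1.45 to 1.51) in CGG. Neutrophils and monocytes thus carried fewer heavy chain mRNAs for each light chain mRNA in CGG-Cit. In macrophages the quotient was 1.80 (1.74 to 1.85) in CGG-Cit and 1.90 (1.89 to 1.91) in CGG, and in early erythroid cells 3.19 (3.13 to 3.25) in CGG-Cit and 3.43 (3.32 to 3.54) in CGG. Mesenchymal cells had 1.85 (1.75 to 1.95) in CGG-Cit and 1.83 (1.81 to 1.85) in CGG, and dendritic cells 2.89 (2.74 to 3.05) in CGG-Cit and 1.98 (1.88 to 2.07) in CGG. The dendritic cluster led by Siglech went the other way, at 3.96 (3.73 to 4.22) in CGG-Cit and 5.59 (5.15 to 6.08) in CGG. The dendritic cluster led by Ccl22, given only for CGG, stood at 0.598 (0.553 to 0.645), so the class value depends on the cluster mix. By its value alone, whether or not the intervals overlapped, the quotient was lower in CGG-Cit in 9 of 12 classes and in 17 of 20 clusters.

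**Figure D5:**
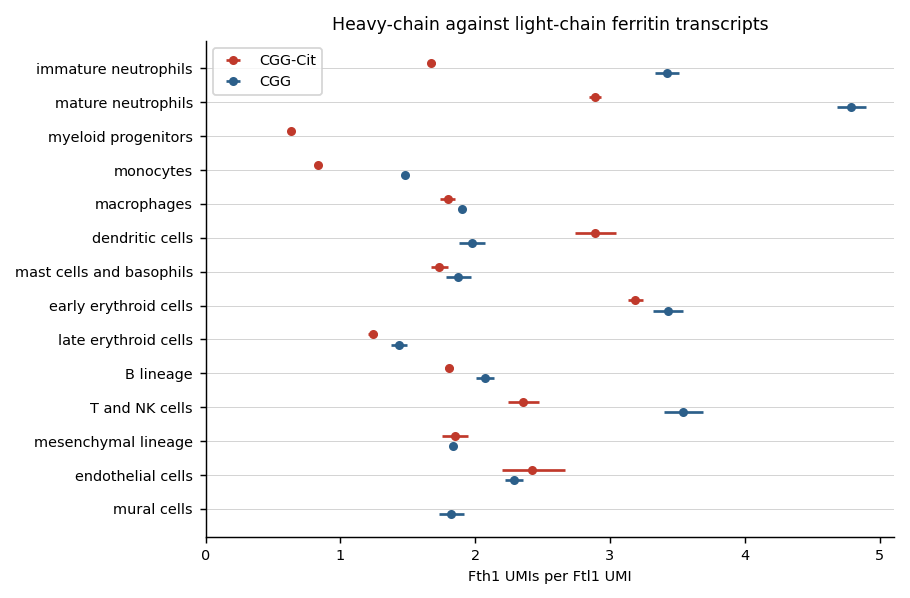
Fth1 UMIs per Ftl1 UMI by cell class, CGG-Cit in red and CGG in blue, with bars for 95% intervals. The libraries are farthest apart in neutrophils, 1.68 in CGG-Cit against 3.42 in CGG for immature ones, and close in macrophages and mesenchymal cells.

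In neutrophils the macrophage gene C1qa was lower in CGG-Cit, as Fth1 was. It stood at 0.564 CPM in CGG-Cit and 40.5 CPM in CGG immature neutrophils, and at 1.23 CPM in CGG-Cit and 77.3 CPM in CGG mature neutrophils. In mesenchymal cells C1qa was also lower, at 0.977 CPM in CGG-Cit and 75.6 CPM in CGG. Fth1 was not lower there, at 3763 CPM in CGG-Cit and 3499 CPM in CGG. The part of macrophage RNA in the Fth1 values was not tested. Reads of a ferritin copy could also have been shared: the copy of Ftl1 in the matrices had 93 UMIs in CGG-Cit and 194 in CGG, and how the counting treated reads from ferritin pseudogenes was not stated.

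Members past 2-fold were counted in each class and set beside the share of all compared genes. A gene was compared in a class with at least 20 UMIs over both libraries and a mean of at least 10 CPM, which Hpx reached in none. In immature neutrophils 0 of 8 compared members were at least 2-fold higher in CGG-Cit and 1 (Fth1) was at least 2-fold lower, against 0.676% of all compared genes higher and 2.42% lower. In mature neutrophils 0 of 8 passed in either direction, against 1.45% of genes higher and 4.98% lower. In monocytes 0 of 7 were higher and 2 (Hmox1 and Slc11a1) lower, against 0.602% higher and 3.96% lower. The monocyte pair depended on the clusters, since at Leiden resolution 0.5 neither passed, while Hp and Lcn2 (higher in CGG-Cit) and Tfrc (lower) did. In macrophages 2 of 8 (Hp and Lcn2) were higher and 2 (Slc40a1 and Slc11a1) lower, against 6.18% higher and 7.69% lower, and Slc11a1 was lost with at least 500 genes per cell. In mesenchymal cells 2 of 6 (Hp and Lcn2) were higher and 0 lower, against 3.43% higher and 3.19% lower, and Lcn2 was lost with the per-cell marker gate. In T and NK cells 1 of 5 (Hp, lost with doublets kept) was higher and 0 lower, against 1.49% higher and 3.62% lower, and in B lineage cells 0 of 5 passed in either direction, against 0.305% higher and 3.36% lower. In erythroid cells 2 of 6 (Hp, 21.9 CPM in CGG-Cit and 5.97 CPM in CGG, and Lcn2, 146 CPM in CGG-Cit and 68.7 CPM in CGG) were higher and 0 lower, against 19.7% higher and 0.789% lower. S100a8 stood at 1216 CPM in CGG-Cit and 482 CPM in CGG erythroid cells, and its part in those values was not tested. That erythroid background depends on the scale. Globins took 58.7% of UMIs in CGG-Cit and 69.9% in CGG, and under median-of-ratios scaling, which moves the log2 ratio of all genes by 0.49, 5.80% of genes were higher and 3.28% lower, and Lcn2 no longer passed. Lcn2 was also lost with at least 500 genes per cell, at resolution 0.5, with the per-cell gate and with each library clustered alone, at log2 ratios of 0.22 to 0.81, against 1.09. On the median-of-ratios scale the erythroid Fth1 and Ftl1 log2 ratios turned sign, at -0.37 and -0.33 against 0.12 and 0.16, and no direction is given for them. The median log2 ratio of the compared members, beside that of all genes compared, was -0.32 beside 0.01 in immature neutrophils, -0.10 beside -0.11 in mature neutrophils, -0.04 beside 0.03 in monocytes and -0.14 beside 0.03 in macrophages. It was 0.14 beside 0.48 in erythroid cells, -0.07 beside -0.03 in B lineage cells, -0.32 beside -0.04 in T and NK cells and 0.43 beside 0.03 in mesenchymal cells.

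Other genes of iron and heme handling, taken from 9 lists that also hold the members, added the following. Trf, transferrin, the plasma carrier of iron, was lower in CGG-Cit in several classes: it was 99.5 CPM in CGG-Cit and 206 CPM in CGG mature neutrophils, a ratio of 0.483 (0.432 to 0.540), and 119.5 CPM in CGG-Cit and 296 CPM in CGG macrophages, a ratio of 0.404 (0.323 to 0.4999). Immature neutrophils had Trf at 27.9 CPM in CGG-Cit and 67.9 CPM in CGG, and mesenchymal cells at 18.6 CPM in CGG-Cit and 60.2 CPM in CGG. Of the iron uptake list, 3 of 6 compared genes (Trf, Slc11a1 and Steap3) were at least 2-fold lower in CGG-Cit macrophages and 0 higher, beside 7.69% of all compared genes lower and 6.18% higher. Of the list for iron export and its control, 3 of 4 (Slc40a1, Cp and Bmp2) were lower there and 0 higher. The list for withholding iron from microbes had 4 of 4 higher in CGG-Cit macrophages and 4 of 6 in mesenchymal cells, where 3.43% of all compared genes were higher. The same genes, Lcn2, Ltf, S100a8 and S100a9, all abundant in neutrophils, made up both counts. In erythroid cells 3 of 4 (Lcn2, S100a8 and S100a9) were higher, beside 19.7% of all compared genes, while 2 of 4 (Ltf and S100a9) were higher in monocytes and 0 of 4 in B lineage cells. Ltf, the iron-binding granule protein lactoferrin, was 334 CPM in CGG-Cit and 38.5 CPM in CGG macrophages, and 79.0 CPM in CGG-Cit and 33.6 CPM in CGG monocytes. S100a9, which with S100a8 forms the metal-binding protein calprotectin, was 4817 CPM in CGG-Cit and 986 CPM in CGG macrophages, and 3037 CPM in CGG-Cit and 1270.2 CPM in CGG monocytes.

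The list for oxidative stress and the heme response, to which Hmox1 is commonly counted, had 3 of 8 compared genes at least 2-fold lower in CGG-Cit mature neutrophils and 0 higher, and 3 of 10 lower in CGG-Cit monocytes and 0 higher, beside 4.98% and 3.96% of all compared genes lower. In other classes 0 of 8 passed in immature neutrophils, 1 of 10 was lower in macrophages, and in mesenchymal cells Gclc was higher and Srxn1 lower of 10. In mature neutrophils Txnrd1, thioredoxin reductase, was 48.9 CPM in CGG-Cit and 157 CPM in CGG, a ratio of 0.312 (0.270 to 0.360). Prdx1, a peroxidase, was 26.98 CPM in CGG-Cit and 78.0 CPM in CGG mature neutrophils, a ratio of 0.346 (0.283 to 0.422). In monocytes Nfe2l2, the factor NRF2 that drives many of these genes, was 111 CPM in CGG-Cit and 259 CPM in CGG, a ratio of 0.429 (0.402 to 0.458), and Slc7a11, the cystine importer, 28.2 CPM in CGG-Cit and 73.8 CPM in CGG, a ratio of 0.382 (0.336 to 0.434). In macrophages the heme transporter Slc48a1 was 49.5 CPM in CGG-Cit and 100.03 CPM in CGG, and the scavenger receptor Stab1 55.0 CPM in CGG-Cit and 162 CPM in CGG. The lists for iron sensing and for mitochondrial iron had 0 of 3 and 0 of 8 compared genes past 2-fold in macrophages.

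The genes whose levels followed each member most closely over the 26 points of class and library are given by Pearson's r of log2(CPM + 5), as a description, since the points share libraries and depth. For Lcn2 these were Ngp (0.99), Ltf (0.99) and S100a9 (0.97), and for Hp Trem3 (0.98), Pram1 (0.94) and F630028O10Rik (0.94). For Hmox1 they were Rin2 (0.96), Tgfbi (0.93) and Ifi204 (0.90), and for Slc11a1 Pla2g7 (0.95), Clec4n (0.95) and AF251705 (0.94). For Slc40a1 they were Sqrdl (0.78), Mrgpra2b (0.78) and Mrgpra2a (0.78), with lower values than for the other members. For Fth1 they were Slc15a3 (0.82), Pla2g7 (0.82) and Ftl1 (0.82), and for Ftl1 Csf1r (0.88), Aph1c (0.86) and Adgre1 (0.85). For Tfrc they were Fzr1 (0.90), Abcb4 (0.87) and Fam117a (0.86).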

How the data were processed

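Values are whole UMI counts for each gene and barcode, deposited without normalization and made with Cell Ranger 4.0.0 per the file headers, or 3.0 and build mm10 per the submitters' processing notes. The kit version is not settled by the labels. The 9 genes, their lists and the comparisons were chosen with earlier results of these data known. Barcodes with at least 200 genes and at most 20% mitochondrial UMIs were kept. Scrublet marked 537 of 10531 CGG-Cit cells at its own threshold. In CGG that threshold marked 1 of 12279 cells, so the 1206 highest scores were removed (0.8% per 1000 barcodes). Cells of both libraries were clustered together on 2000 variable genes without the members or pathway genes (10000 UMIs per cell, 30 components, 15 neighbours, Leiden resolution 1.0, seed 7). Clusters were named from 24 marker lists by their 8 best markers, with at least 3 detected. UMIs were summed per class and library into CPM with exact Poisson intervals. Ratios have exact conditional binomial intervals and shares Clopper-Pearson intervals. Past 2-fold means a ratio of at least 2 or at most 0.5. The text names all 9 members and, per class, up to 3 other pathway genes in each direction, past 2-fold and reaching 50 CPM and 30 UMIs where they were higher. Cd163 and genes given only as part of a list count were named after their values were seen. Alternatives were 500 genes per cell, doublets kept, resolution 0.5, each library clustered alone, a per-cell marker gate, mean per-cell CPM, median-of-ratios scaling, no minimum level, and leaving out cells led by Gm26870. Leaving globins out was added after the data were seen. Only the ratio intervals and the 2-fold calls were tested on simulated data, with Poisson counts, which the intervals assume. Clustering, naming, doublet removal and thinning were not simulated. Clustering used scanpy 1.11.5, leidenalg 0.10.2, igraph 0.11.9, scikit-learn 1.9.0 and anndata 0.12.19 under Python 3.11.15, intervals scipy 1.17.1, tables pandas 2.3.3 and numpy 2.4.6, and figures matplotlib 3.10.9.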

Additional observations from a re-analysis of the deposited data

How the results depend on the processing

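Of 416 log2 ratios recomputed under 8 other processing choices, 377 kept their sign. The 92 of them that were past 2-fold in the joint clusters all kept their sign and 78 stayed past 2-fold. Both counts include leaving out the cells led by Gm26870, which kept 53 of 53 signs and 12 of 12 calls. That choice could not move a ratio, since the group was in no named class. Counts of members past 2-fold moved most when each library was clustered alone, where they were 3 in immature neutrophils (1 in the joint clusters), 2 in mature neutrophils (0), 5 in monocytes (2), 7 in macrophages (4), 1 in erythroid cells (2), 2 in T and NK cells (1) and 3 in mesenchymal cells (2), with 577 CGG-Cit cells named macrophages in place of 81. With at least 500 genes per cell they were 2 in immature neutrophils, 1 in monocytes and 1 in erythroid cells. With doublets kept there were 2 in immature neutrophils, and with the per-cell marker gate 2 in immature neutrophils and 1 in monocytes. Mean per-cell CPM gave 1 in monocytes. Median-of-ratios scaling, resolution 0.5 and leaving globins out each gave 1 in erythroid cells. With no minimum level there were 5 in erythroid cells, 4 in B lineage cells, 3 in T and NK cells and 4 in mesenchymal cells, because genes with few UMIs enter. At resolution 0.5 monocytes had 3, other genes than in the joint clusters. The cause of the other moves was not tested. For these other settings the share of all compared genes past 2-fold is given only for median-of-ratios scaling in erythroid cells. The remaining counts are therefore not read against a background. The per-cell gate left too few CGG-Cit macrophages for a value. No paired analysis was possible because each hydrogel had 1 library, and for the same reason no library could be left out. Depth limits Hpx throughout, and the small CGG-Cit macrophage and mesenchymal classes limit every value given for them.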
